A study of Mus musculus with 25 samples.

Results

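Krüppel-like factors are followed here through Klf2, Klf3, Klf4, Klf5, Klf6, Klf7, Klf9, Klf10, Klf13 and Klf15, chosen by gene symbol on the array. These are 10 of the 18193 genes that the array names with a single symbol, and 34 of its 45101 probe sets. All 10 were found. Klf2, Klf10 and Klf15 have 1 probe set each and the other 7 genes have several. The brightest probe set of each gene over all 25 arrays gave the gene's value, and the remaining ones are described after it.

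The study measured RNA from engineered mouse cell types and from the tissues they were set against, on Affymetrix mouse expression arrays with 100 ng of total RNA each. The 25 arrays fall into 10 groups. Values are RMA signals on the log2 scale, so a step of 1 is a doubling of signal. Labels call the 3 iHep lines independent, and do not say whether the arrays of the other groups came from separate cultures or animals, so p-values there measure only the spread between arrays. Induced macrophages (iMacs) were made from C10 pre-B cells that carried Ebf1 shRNA (2 arrays), Pou2af1 shRNA (2 arrays) or scramble shRNA (2 arrays) from a lentivirus. Puromycin had been given for 2 days before conversion, and the scramble label adds 100 nM estradiol with IL-3 and CSF-1. Engrafted iHeps (2 arrays) were GFP+ cells sorted 12 days after transplantation into DSS-damaged colons of Rag2gammac-/- mice. Cultured iHeps (3 arrays) were E13.5 C57BL/6J fibroblasts transduced with Foxa1 and Hnf4a retroviruses and kept with dexamethasone, a glucocorticoid, and with insulin, HGF and EGF. The tissues were adult liver (C57BL/6J, 2 arrays), fetal liver (E14.5, C57BL/6J, 2 arrays) and colon crypts of Rag2gammac-/- mice aged 8 weeks (2 arrays). Labels of the adult liver disagree, since 1 names whole liver at 8 weeks and another names collagenase-isolated hepatocytes at 10 weeks. Further iHeps carried Cdx2 shRNA (4 arrays) or scramble shRNA (4 arrays) after 2 days of puromycin and a week of culture.

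Krüppel-like factors are zinc-finger transcription factors that bind GC-rich and CACCC-containing DNA, while the rest of each protein recruits coactivators or corepressors. In the gut, Klf5 is known from dividing crypt cells and Klf4 from goblet and surface cells that have stopped dividing. In the liver, Klf15 is known for control of gluconeogenesis and amino acid breakdown, and Klf9 and Klf15 are known targets of the glucocorticoid receptor. Klf2, Klf4, Klf6 and Klf10 respond quickly to growth factors, stress or TGF-beta in many cell types.

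The RefSeq promoter windows of 5 members are shown because their signals run in opposite directions between liver and colon. Klf4, Klf6 and Klf2 were higher in colon than in adult liver, and Klf9 and Klf15 were higher in adult liver. Each is 250 bases long (assembly GRCm38.p6) and read 5′ to 3′ along the gene. The windows of Klf4, Klf6, Klf2 and Klf9 lie directly before the listed start of the gene. That of Klf15 lies inside the listed gene, which starts at chr6:90461043. Klf4 lies at chr4:55532476-55532725 on the minus strand, Klf6 at chr13:5861239-5861488 on the plus strand, Klf2 at chr8:72318812-72319061 on the plus strand, Klf9 at chr19:23140976-23141225 on the plus strand and Klf15 at chr6:90462326-90462575 on the plus strand. Capitals mark the CACCC box and the GC box GGGCGG on either strand, which can overlap.
Klf4: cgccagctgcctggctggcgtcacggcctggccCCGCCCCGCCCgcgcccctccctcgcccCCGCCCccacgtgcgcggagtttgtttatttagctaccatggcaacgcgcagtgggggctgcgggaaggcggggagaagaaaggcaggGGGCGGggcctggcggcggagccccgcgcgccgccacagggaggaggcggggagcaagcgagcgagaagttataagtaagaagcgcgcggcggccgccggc
Klf6: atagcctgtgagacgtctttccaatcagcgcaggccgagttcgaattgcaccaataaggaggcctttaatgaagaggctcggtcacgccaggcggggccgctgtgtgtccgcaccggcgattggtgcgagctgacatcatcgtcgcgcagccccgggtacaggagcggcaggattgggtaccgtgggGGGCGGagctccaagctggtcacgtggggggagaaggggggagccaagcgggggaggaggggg
Klf2: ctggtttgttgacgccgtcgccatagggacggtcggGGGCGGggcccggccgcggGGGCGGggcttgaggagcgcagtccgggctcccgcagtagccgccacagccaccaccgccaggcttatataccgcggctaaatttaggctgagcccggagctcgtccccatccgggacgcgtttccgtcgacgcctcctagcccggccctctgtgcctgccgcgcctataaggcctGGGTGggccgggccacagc
Klf9: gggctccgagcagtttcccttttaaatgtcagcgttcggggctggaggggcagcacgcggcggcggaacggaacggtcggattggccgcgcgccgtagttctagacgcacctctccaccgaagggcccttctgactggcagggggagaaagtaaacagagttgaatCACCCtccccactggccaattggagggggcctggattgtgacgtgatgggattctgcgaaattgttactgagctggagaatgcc
Klf15: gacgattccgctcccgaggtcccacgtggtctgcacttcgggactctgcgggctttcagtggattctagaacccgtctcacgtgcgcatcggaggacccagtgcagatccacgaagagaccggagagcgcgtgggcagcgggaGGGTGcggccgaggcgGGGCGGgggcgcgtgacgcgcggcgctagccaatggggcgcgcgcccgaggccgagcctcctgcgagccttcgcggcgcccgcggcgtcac

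RefSeq's promoter table held 8 of the 10 members, without Klf5 and Klf10. The windows of Klf7 and Klf15 lie inside the listed span of their genes. At least 1 CACCC box lay in the windows of 6 of these 8 genes, against 52.0% of all 32851 windows of that length. A GC box lay in 7 of the 8, against 32.7% of all windows, and Klf9 is the one without it. Klf4, Klf6 and Klf15 each hold the E-box CACGTG, which 6.02% of all windows hold. The sequence AGAACA, part of the glucocorticoid response element, was in none of the 8 windows and in 16.1% of all windows, which says only that these letters are not in these stretches. Such matches are descriptions of letters, and binding was not measured.

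Tissue markers fitted the labels for the reference tissues in their means, though not gene by gene. Mean log2 signal of 7 hepatocyte genes was 13.40 and 13.80 on the adult liver arrays and 7.41 and 7.44 on the colon arrays, and that of 8 colonocyte genes was 6.48 and 6.59 on the adult liver arrays and 12.12 and 12.09 on the colon arrays. In adult liver over colon 5 of the 7 hepatocyte genes were higher, against 24.8% of all genes, and none lower. Hnf4a had means of 11.93 in adult liver and 12.69 in colon and was not called. Of the 8 colonocyte genes 7 were lower, against 35.9% of all genes. Aqp8 was higher, with 11.40 in adult liver and 9.29 in colon. Engrafted iHeps had 8.20 and 7.29 for hepatocyte genes and 11.15 and 10.25 for colonocyte genes, against 6.66, 9.01 and 9.88, and 7.33, 6.98 and 7.36, in cultured iHeps. A few arrays stood apart from their group. Adult liver replicate 1 was above replicate 2 for macrophage genes (9.20 and 8.05) and endothelial genes (7.96 and 7.27). Engrafted iHep replicate 2 was above replicate 1 for fibroblast genes (9.49 and 6.55) and macrophage genes (7.65 and 5.30). The iHep replicate 1 array had the lowest Hnf4a (7.67, against 10.78 and 10.48 in the other lines). Foxa1, the other transduced gene, was at 4.30, 4.14 and 4.52 in cultured iHeps, below the 40th percentile of the arrays (5.52 to 5.80). Ebf1 was at 7.41 and 7.21 in Ebf1 shRNA iMacs, against 8.31 and 8.38 in scramble iMacs, and Cdx2 was at 7.78 to 8.03 in Cdx2 shRNA iHeps, against 8.96 to 9.42 in scramble iHeps. Pou2af1 was not lower on the arrays labelled Pou2af1 shRNA, at 11.34 and 11.26 against 11.25 and 11.06 in scramble iMacs, so results of that group carry its label only.

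**Figure D1:**
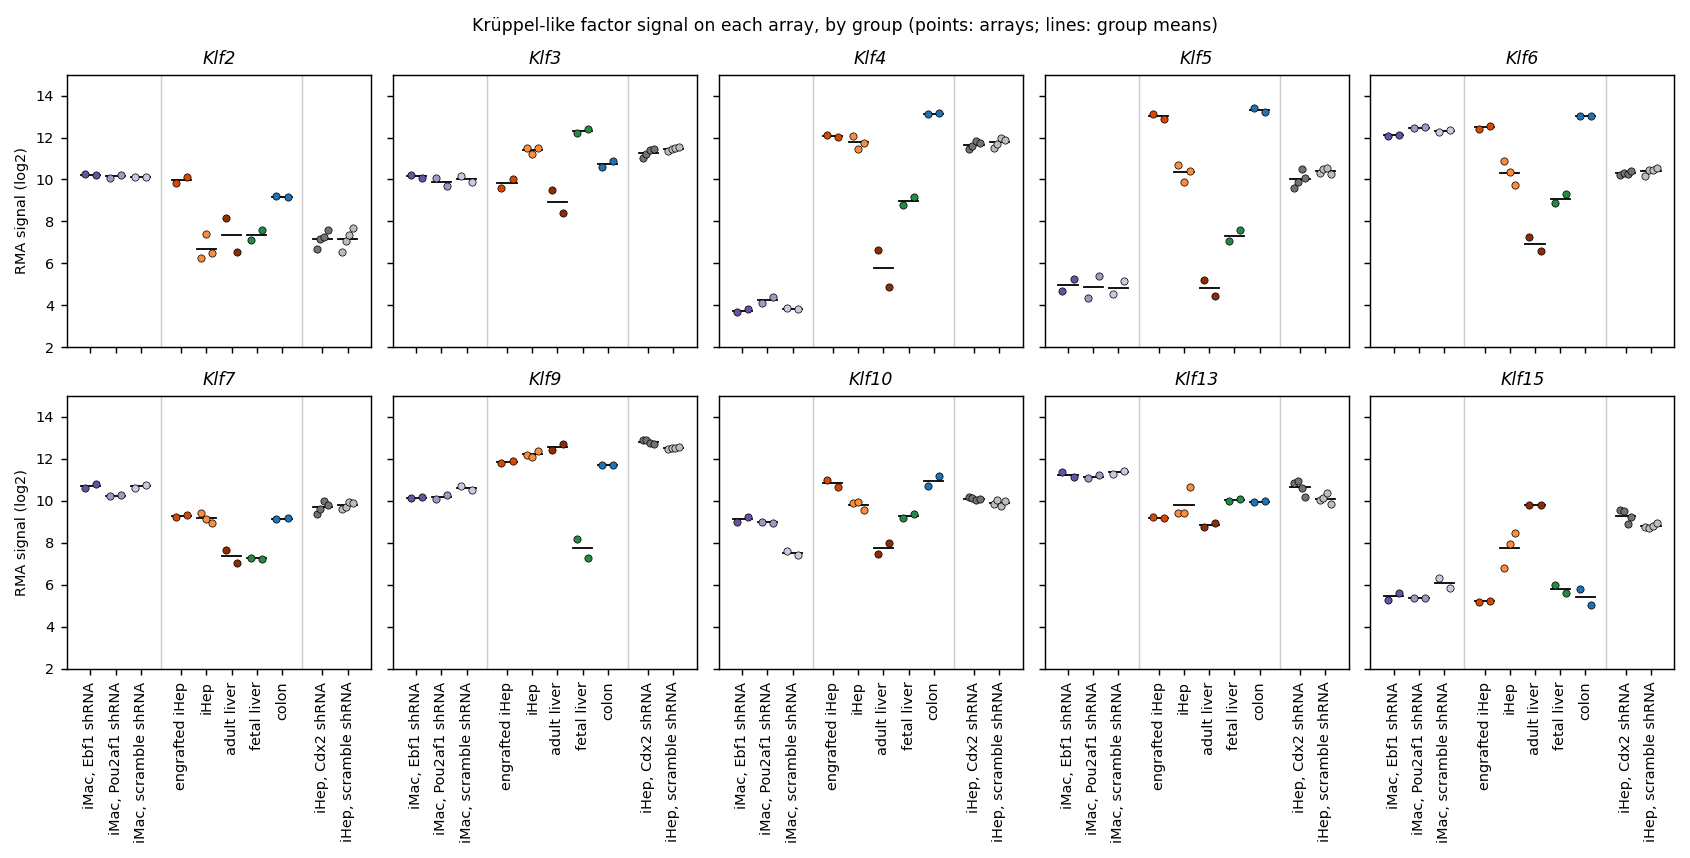
Log2 RMA signal (vertical axis) of the 10 genes on every array, by group (horizontal axis); points are arrays and lines are group means. Klf4 and Klf5 span 9.39 and 8.50 between their highest and lowest group means, while Klf13 spans 2.51.

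The 10 genes differed in how far their group means spread. The span was 9.39 for Klf4, 8.50 for Klf5, 6.10 for Klf6, 5.07 for Klf9 and 4.60 for Klf15. It lay between 2.51 and 3.52 for Klf2, Klf3, Klf7, Klf10 and Klf13. Colon had the highest mean of Klf4, Klf5, Klf6 and Klf10, adult liver had the highest mean of Klf15 and fetal liver had that of Klf3. Adult liver had the lowest mean of Klf3, Klf5, Klf6 and Klf13. Ordered by group mean, neighbouring groups did not overlap at 6 of 9 steps for Klf6 and Klf9, at 5 for Klf4, at 4 for Klf3, Klf5, Klf7 and Klf15, at 3 for Klf10 and Klf13 and at 2 for Klf2. Such steps were not counted over all genes, and most groups hold 2 arrays, so these counts cannot be read as particular to the members. In bulk samples like these, fewer cells of a type and less RNA per cell cannot be told apart.

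Klf4 and Klf5, the pair best known from gut epithelium, were high in colon, in engrafted iHeps and in cultured iHeps, and low in adult liver. Klf4, a brake on division in goblet and surface cells, had 12.12 and 12.04 in engrafted iHeps, 12.10, 11.44 and 11.76 in cultured iHeps, 6.66 and 4.87 in adult liver, 8.79 and 9.18 in fetal liver and 13.11 and 13.16 in colon. Both colon arrays were above all other arrays, and the engrafted and cultured iHep arrays overlapped. Adult liver replicate 2 lay below the 40th percentile, so background limits the differences from adult liver. Cultured iHeps exceeded adult liver by 6.00 ± 0.44 on the log2 scale (SE; limma adjusted p = 3.17e-06) and fetal liver by 2.78 ± 0.44 (adjusted p = 0.000926), and fell short of colon, with a log2 fold change of -1.37 ± 0.44 (adjusted p = 0.0244). The last call was lost without iHep replicate 2 or 3 and without either colon array (highest of these adjusted p = 0.104), with values between -1.21 and -1.39. Engrafted over cultured iHeps, Klf4 gave 0.31 ± 0.44, which did not pass the test (adjusted p = 0.58).

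Klf5, known for driving division in crypts, had 13.14 and 12.88 in engrafted iHeps, 10.71, 9.90 and 10.40 in cultured iHeps, 5.21 and 4.43 in adult liver, 7.06 and 7.59 in fetal liver and 13.42 and 13.21 in colon. Adult liver lay below the 40th percentile of its arrays (5.52 to 5.80 over all arrays), where signal is largely background, and engrafted iHeps lay above every cultured iHep array. Klf5 rose by 2.68 ± 0.32 in engrafted over cultured iHeps (6.39-fold; limma adjusted p = 0.000135). Cultured iHeps were above adult liver by 5.52 ± 0.32 (adjusted p = 7.50e-07) and above fetal liver by 3.01 ± 0.32 (adjusted p = 7.40e-05), and below colon, at -2.98 ± 0.32 (adjusted p = 5.27e-05). Adult liver over colon gave -8.50 ± 0.35 for Klf5 and -7.37 ± 0.48 for Klf4. Background in liver limits how large these 2 differences can read.

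Klf4 was not called in engrafted over cultured iHeps, where 7 of 11 goblet cell genes rose and none fell. The median of these genes was 3.74, against -0.22 over all genes tested. Of all genes, 18.2% rose and 29.7% fell in that comparison. Agr2, a secretory-pathway chaperone, had means of 12.96 in engrafted and 3.78 in cultured iHeps, and Spink4 had 14.16 and 5.88. Muc2, the gel-forming mucin of goblet cells, rose by 6.92 ± 0.21, while Clca1, which was already at 11.17 in cultured iHeps, gave 1.45 ± 0.59 (adjusted p = 0.0669). Klf5 gave -0.30 ± 0.35 in engrafted iHeps over colon and was not called. The median of 10 crypt proliferation genes there was 1.52, against 0.01 over all genes tested. Top2a was higher by 2.19 ± 0.41 and Mki67 by 1.67 ± 0.33. Of the 10 genes, 6 were higher, against 7.10% of all genes, and none lower. That count was 0 without either of the colon arrays. In engrafted over cultured iHeps, where Klf5 rose, the median of these 10 genes was -0.33. There 3 were higher, with the stem cell marker Lgr5 at 2.49 ± 0.62 and Ascl2 at 1.91 ± 0.23. Another 2 were lower, Cdk1 at -1.52 ± 0.37 and Top2a at -1.31 ± 0.38. Without engrafted iHep replicate 2 the number higher was 1, and without iHep replicate 2 or engrafted iHep replicate 1 the number lower was 1.

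Klf2, Klf6 and Klf10, which act early after stimulation, were higher in engrafted than in cultured iHeps and lower in adult liver than in colon. Klf2, which keeps lymphocytes and endothelium quiescent, had 9.84 and 10.12 in engrafted iHeps, 6.26, 7.40 and 6.48 in cultured iHeps, 8.19 and 6.57 in adult liver, 7.14 and 7.59 in fetal liver and 9.21 and 9.15 in colon. Its iMac values, 10.28 and 10.19 with Ebf1 shRNA and 10.13 and 10.10 with scramble shRNA, were the only ones of the series at the level of engrafted iHeps. Engrafted iHeps had Klf2 higher than cultured iHeps by 3.27 ± 0.47 (9.62-fold; limma adjusted p = 0.000408), with no overlap. The increase was 3.12 without engrafted iHep replicate 2, the array with more fibroblast and macrophage signal.

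Klf6, an early gene of injured epithelium and liver, had 12.40 and 12.56 in engrafted iHeps, 10.86, 10.35 and 9.73 in cultured iHeps, 7.25 and 6.62 in adult liver, 8.86 and 9.30 in fetal liver and 13.04 and 13.03 in colon. The 5 groups did not overlap at any step from colon down to adult liver. Klf6 rose by 2.17 ± 0.33 in engrafted over cultured iHeps (limma adjusted p = 0.00061) and cultured iHeps were above adult liver by 3.38 ± 0.33 (adjusted p = 1.92e-05).

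Klf10, named for its induction by TGF-beta, had 10.98 and 10.68 in engrafted iHeps, 9.91, 9.94 and 9.56 in cultured iHeps, 7.46 and 8.01 in adult liver, 9.16 and 9.38 in fetal liver and 10.72 and 11.18 in colon. Engrafted iHeps and colon overlapped, and both were above the rest of these groups. Klf10 rose by 1.03 ± 0.25 in engrafted over cultured iHeps (limma adjusted p = 0.00803) and was lower in adult than in fetal liver, at -1.53 ± 0.28 (adjusted p = 0.00114).

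Other immediate early genes, which cells switch on within minutes of a stimulus, moved beside these 3 members. In engrafted over cultured iHeps, 6 of 14 rose, against 18.2% of all genes, and 2 fell, against 29.7% (median 1.28, against -0.22 over all genes tested). The number that fell was 1 without iHep replicate 1 or 3 or engrafted iHep replicate 1. Fosb had means of 11.40 in engrafted and 5.83 in cultured iHeps, Atf3 had 12.76 and 8.16, and Jun had 13.03 and 8.78. Fos gave 1.79 ± 0.67, which missed the threshold (adjusted p = 0.0512). In adult liver over colon, 13 of 14 were lower, against 35.9% of all genes, with Egr2 at -7.94 ± 0.44 and Atf3 at -7.20 ± 0.30. Egr3 was the exception, at 0.05 ± 0.25, and gave -1.74 and a call when its probe sets were averaged. Engrafted iHeps and colon crypts were both taken out of tissue with EDTA and trypsin, the engrafted cells were also sorted, and the labels name no such step for cultured iHeps. The part of these steps in the Klf2, Klf6 and Klf10 values was not tested.

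Klf9 and Klf15, the glucocorticoid-responsive members, were the only ones of the 10 higher in adult liver than in colon. Klf15, an activator of amino acid breakdown and gluconeogenesis, had 5.18 and 5.24 in engrafted iHeps, 6.82, 7.96 and 8.48 in cultured iHeps, 9.79 and 9.83 in adult liver, 6.01 and 5.60 in fetal liver and 5.78 and 5.06 in colon. Adult liver lay above the other 4 groups, cultured iHeps lay between it and the rest, and engrafted iHeps lay below the 40th percentile. Klf15 was higher in adult than in fetal liver by 4.0 ± 0.47 (limma adjusted p = 7.38e-05). It was lower in cultured iHeps than in adult liver, at -2.06 ± 0.43 (adjusted p = 0.00233), and lower in engrafted than in cultured iHeps, at -2.54 ± 0.43 (adjusted p = 0.00103). The iHep line with the lowest Klf15 (6.82) was the line with the lowest Hnf4a and hepatocyte gene signal. Without it, Klf15 gave -1.59 in cultured iHeps over adult liver and -3.01 in engrafted over cultured iHeps, and both calls held.

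Klf9, a partner of glucocorticoid and thyroid hormone signalling, had 11.81 and 11.90 in engrafted iHeps, 12.17, 12.11 and 12.38 in cultured iHeps, 12.41 and 12.72 in adult liver, 8.19 and 7.29 in fetal liver and 11.71 and 11.71 in colon. By the probe set used, fetal liver was lower than every other array of the series, and 5 of the 7 Klf9 probe sets were higher in adult than in fetal liver. Klf9 was above fetal liver by 4.48 ± 0.27 in cultured iHeps (22.3-fold; limma adjusted p = 2.43e-06) and by 4.82 ± 0.29 in adult liver (28.3-fold; adjusted p = 1.61e-06). Cultured iHeps and adult liver did not overlap, with a log2 fold change of -0.35 ± 0.27 that did not pass the test (adjusted p = 0.303). Adult liver over colon gave 0.85 ± 0.29 (adjusted p = 0.0292), a call lost without adult liver replicate 2 (0.69) and without colon replicate 1 or 2 (0.85 and 0.86).

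Beside Klf9 and Klf15, 6 of 10 glucocorticoid-inducible genes were higher in cultured iHeps than in fetal liver, against 19.9% of all genes, and none lower (median 2.01, against 0.05 over all genes tested). Sgk1, a kinase induced by steroids, was at 4.19 ± 0.73, and Fkbp5, a chaperone of the glucocorticoid receptor, was at 2.56 ± 0.29. In engrafted over cultured iHeps, 6 of the 10 fell, against 29.7% of all genes, and none rose, with Fkbp5 at -3.17 ± 0.29 and Tsc22d3 at -2.73 ± 0.33. Without iHep replicate 2 or 3 that number was 3. Dexamethasone is named for the culture of iHeps and for no tissue, and its part in the Klf9 and Klf15 values was not tested. Of 11 genes of amino acid catabolism and gluconeogenesis, 10 were higher in adult than in fetal liver, against 18.2% of all genes (median 4.58, against -0.16 over all genes tested). In cultured iHeps 9 were lower than in adult liver, also against 18.2% of all genes. G6pc, the last enzyme of gluconeogenesis, had means of 12.98 in adult liver, 4.50 in fetal liver and 4.06 in cultured iHeps. In cultured iHeps Klf15 stood at an intermediate level while G6pc was below the 40th percentile.

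Klf3, Klf7 and Klf13 are described last because their values depended most on the probe set or on single arrays. Klf3, a repressor that works through the corepressor CtBP, had 9.62 and 10.04 in engrafted iHeps, 11.49, 11.21 and 11.49 in cultured iHeps, 9.48 and 8.42 in adult liver, 12.20 and 12.39 in fetal liver and 10.61 and 10.89 in colon. By this probe set fetal liver was above all other arrays and adult liver below them. The next 3 brightest Klf3 probe sets put colon above fetal liver, with means of 10.69 in colon and 10.23 in fetal liver, 12.07 and 9.66, and 10.88 and 9.42, so the order of the groups is that of 1 probe set. Klf3 was lower in adult than in fetal liver, at -3.34 ± 0.34 (limma adjusted p = 2.86e-05). Cultured iHeps were also lower than fetal liver, at -0.89 ± 0.31 (adjusted p = 0.0495), a call that was lost without any single one of the 5 arrays. In the same adult over fetal liver comparison 10 of 13 cofactor genes of the family were lower, against 31.1% of all genes, and none was higher (median -1.48, against -0.16 over all genes tested), with Ctbp2 at -3.84 ± 0.30 and Ctbp1 at -2.10 ± 0.20.

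Klf7, known mainly from neurons and fat precursor cells, had 9.22 and 9.32 in engrafted iHeps, 9.43, 9.14 and 8.95 in cultured iHeps, 7.66 and 7.06 in adult liver, 7.28 and 7.25 in fetal liver and 9.13 and 9.18 in colon. Both livers were below the other groups by this probe set. In the other 3 Klf7 probe sets engrafted iHeps stood near the livers, with means of 7.38 in engrafted iHeps, 7.67 in adult liver and 7.46 in fetal liver, then 7.44, 6.75 and 7.14, and 7.33, 7.04 and 7.76. Cultured iHeps were above adult liver by 1.81 ± 0.23 (limma adjusted p = 0.00011) and above fetal liver by 1.91 ± 0.23 (adjusted p = 0.000199).

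Klf13, known from T cells as an activator of the chemokine Ccl5, had 9.25 and 9.17 in engrafted iHeps, 9.41, 9.40 and 10.67 in cultured iHeps, 8.75 and 8.95 in adult liver, 9.98 and 10.11 in fetal liver and 9.93 and 9.99 in colon. Cultured iHep replicate 3 was above all of these arrays. Cultured iHeps were higher than adult liver by 0.98 ± 0.35 (limma adjusted p = 0.037), with 0.56 and no call without replicate 3, and no call without either adult liver array (0.88 and 1.08). Adult over fetal liver gave -1.20 ± 0.38 (adjusted p = 0.0259) and adult liver over colon gave -1.11 ± 0.38 (adjusted p = 0.03), and both calls were lost without any single one of the arrays compared (adjusted p up to 0.111 and 0.12).

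Counted by comparison, the 10 members can be set against the share of all genes called in the same direction. In engrafted over cultured iHeps, 4 members rose (Klf2, Klf5, Klf6 and Klf10), where 18.2% of 15262 genes rose, and 2 fell (Klf3 and Klf15), where 29.7% of genes fell. The fall of Klf3 turned to 0.76 with the mean of its probe sets and 0.53 with the second one. In cultured iHeps over adult liver, 7 were higher against 37.8% of genes, and Klf15 was lower against 18.2% of genes. In cultured iHeps over fetal liver, 6 were higher (Klf4, Klf5, Klf6, Klf7, Klf9 and Klf15) against 19.9%, and Klf3 was lower against 13.1%. Klf6 lost its call there without fetal liver replicate 1 (1.01) and Klf15 without fetal liver replicate 2 (1.74). In cultured iHeps over colon, Klf15 was higher against 32.3%, and 5 were lower (Klf2, Klf4, Klf5, Klf6 and Klf10) against 21.3%. These shares describe comparisons in which many genes moved, and several of these comparisons share arrays.

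Between the tissues themselves, adult over fetal liver had Klf9 and Klf15 higher against 18.2% of genes and 6 members lower (Klf3, Klf4, Klf5, Klf6, Klf10 and Klf13) against 31.1%. Klf2 gave 0.01 ± 0.51 there and Klf7 gave 0.09 ± 0.26. In adult liver over colon all 10 members were called, Klf9 and Klf15 higher against 24.8% of genes and the other 8 lower against 35.9%. Klf2 in that comparison was at -1.80 ± 0.51 (limma adjusted p = 0.0121), with -0.99 and no call without adult liver replicate 2 and -1.77 and no call without colon replicate 1. Adult liver replicate 1, where Klf2 and Klf4 were 8.19 and 6.66, is the array with more macrophage and endothelial signal. Without it, Klf2 gave -2.61 and Klf4 gave -8.26.

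In engrafted iHeps over colon, none of the 10 members passed limma's test in either direction, where 7.10% of genes were higher and 9.66% lower. At an unadjusted p under 0.05 there was 1, Klf3 at -0.92 ± 0.34 (adjusted p = 0.0903). The share of all genes at that cut-off was not counted. The arrays of the 2 groups did not overlap for 8 of the 10 members, where 59.9% of all genes tested did not overlap. Klf4 gave -1.06 ± 0.48, Klf2 gave 0.80 ± 0.51, Klf13 gave -0.75 ± 0.38 and Klf6 gave -0.55 ± 0.36, while Klf5, Klf7, Klf9, Klf10 and Klf15 lay between -0.30 and 0.14. With 2 arrays a group, a miss of the threshold does not show that the levels were alike. In a single model of all 25 arrays, 2 members passed, Klf3 at -0.92 and Klf4 at -1.06, and 2 also passed with the mean of each gene's probe sets or with the second probe set.

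**Figure D2:**
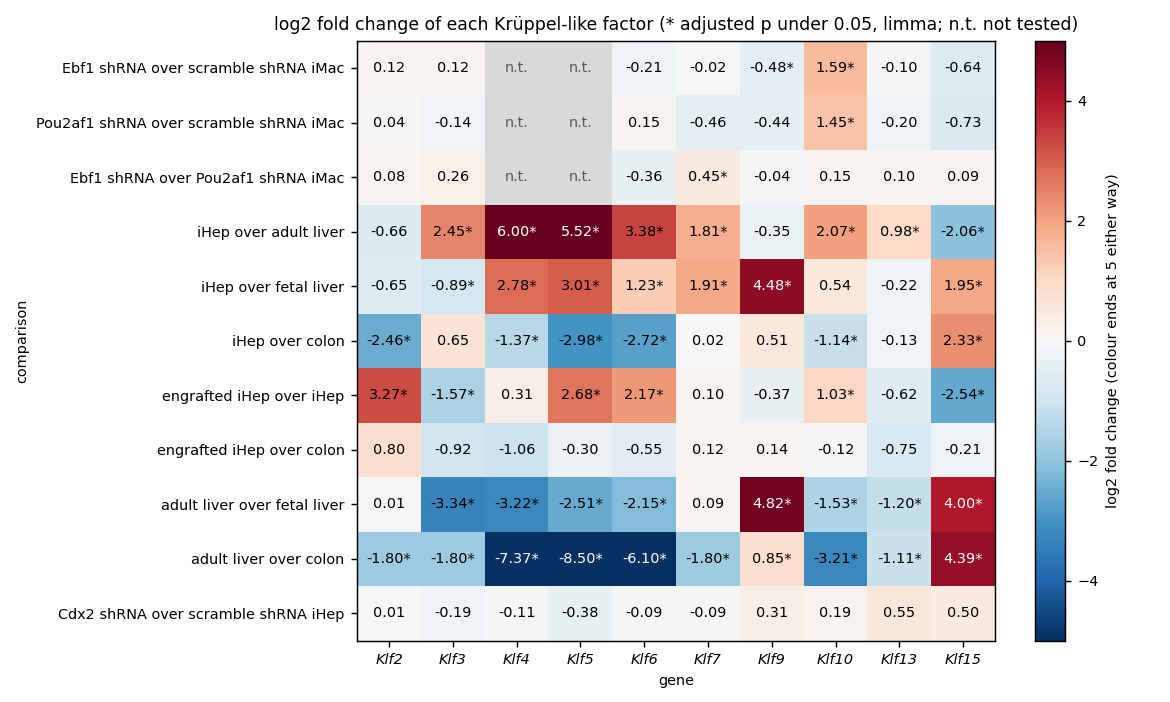
Log2 fold changes (colour and number) of the 10 genes (columns) in the 11 comparisons (rows, the first-named group over the second), with asterisks for a limma adjusted p under 0.05; Klf4 and Klf5 were too dim to test in iMacs. Adult liver over colon is marked for all 10 genes, and engrafted iHep over colon and Cdx2 over scramble shRNA for none.

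In iMacs, Klf10 was the member that moved most. It had 9.0 and 9.25 with Ebf1 shRNA, against 7.62 and 7.44 with scramble shRNA, and 9.0 and 8.95 on the arrays labelled Pou2af1 shRNA. All 4 shRNA arrays were above both scramble arrays. Klf10 rose by 1.59 ± 0.13 with Ebf1 shRNA (3.02-fold; limma adjusted p = 0.00134) and by 1.45 ± 0.13 on the arrays labelled Pou2af1 shRNA (2.72-fold; adjusted p = 0.00251). These comparisons share the scramble arrays. The increases lay between 1.47 and 1.72, and between 1.36 and 1.53, when any single array was left out. Macrophage markers were also higher in their mean, though not gene by gene. The mean of 7 macrophage genes was 10.48 and 10.47 with Ebf1 shRNA and 10.80 and 10.72 on the arrays labelled Pou2af1 shRNA, against 9.72 and 9.59 with scramble shRNA. With Ebf1 shRNA 4 of the 7 rose, against 6.21% of all genes, and Fcgr1 fell, at -0.76 ± 0.14, against 8.16%. Csf1r and Adgre1 gave 0.0003 and 0.30 there and were not called. Under the Pou2af1 label 4 of the 7 rose, against 6.79% of all genes, and none fell. For 7 pre-B cell genes the mean was 8.24 and 8.26 with Ebf1 shRNA and 9.07 and 9.01 on the arrays labelled Pou2af1 shRNA. With scramble shRNA it was 8.39 and 8.49. That mean hides opposite changes with Ebf1 shRNA. Of 6 tested, 3 fell (Ebf1 itself, Vpreb1 and Igll1), against 8.16% of all genes, and none rose. Rag1, too dim to test, had means of 5.39 with Ebf1 shRNA and 3.22 with scramble shRNA. Under the Pou2af1 label 4 of the 6 rose, against 6.79%, and none fell. The part of the macrophage and pre-B cell genes in the Klf10 values was not tested. Set against each other, Ebf1 shRNA and the arrays labelled Pou2af1 shRNA differed by 0.15 ± 0.13 in Klf10 (adjusted p = 0.471).

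With Ebf1 shRNA, Klf10 was 1 of 8 members tested that rose, against 6.21% of 12484 genes, and Klf9 was 1 that fell, against 8.16%. Klf9 had 10.12 and 10.16 with Ebf1 shRNA, against 10.72 and 10.53 with scramble shRNA, a log2 fold change of -0.48 ± 0.12 (limma adjusted p = 0.0437). The groups did not overlap, but the call was lost when any single array was left out (adjusted p between 0.0769 and 0.171). On the arrays labelled Pou2af1 shRNA, Klf10 alone was called of 8, against 6.79% of genes higher, and none was lower, against 5.14%. Klf15 was below the 40th percentile on both of these arrays, so its -0.73 ± 0.18 (adjusted p = 0.0533) is limited by background. Klf7 gave -0.46 ± 0.12 (adjusted p = 0.0523) and Klf9 gave -0.44 ± 0.12 (adjusted p = 0.0622). Their arrays lay below both scramble arrays for all 3 genes. The 2 groups did not overlap for 6 of the 8 members tested, and the share of all genes was not counted, so this does not set the 3 apart.

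Ebf1 shRNA over the arrays labelled Pou2af1 shRNA had Klf7 higher of 8, against 7.10% of genes, and none lower, against 9.31%. Klf7 had 10.60 and 10.79 with Ebf1 shRNA, against 10.21 and 10.28 on the arrays labelled Pou2af1 shRNA, a difference of 0.45 ± 0.12 (limma adjusted p = 0.0479) that was lost without any single one of these arrays. Klf4 and Klf5 stayed between 3.68 and 5.41 in all 6 iMac arrays, below the 40th percentile, and were not tested. Klf6 was high in these cells, at 12.09 and 12.13 with Ebf1 shRNA and 12.46 and 12.48 on the arrays labelled Pou2af1 shRNA, against 12.28 and 12.37 with scramble shRNA. By the probe set used, Klf13 had its highest levels of the series here, at 11.37 and 11.15 with Ebf1 shRNA and 11.11 and 11.22 on the arrays labelled Pou2af1 shRNA, against 11.29 and 11.43 with scramble shRNA. The second Klf13 probe set was highest in Cdx2 shRNA iHeps, with a mean of 10.18, against 9.59 to 9.76 in the iMac groups. Klf3 had 10.21 and 10.07 with Ebf1 shRNA and 10.08 and 9.69 on the arrays labelled Pou2af1 shRNA, against 10.19 and 9.87 with scramble shRNA. The 3 groups did not overlap for Klf6 and overlapped for Klf3, while for Klf13 the arrays labelled Pou2af1 shRNA lay below both scramble arrays and those with Ebf1 shRNA overlapped with both groups. Klf2, Klf3, Klf6 and Klf13 gave log2 fold changes between -0.21 and 0.15 against scramble shRNA under either label.

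Lists beside these iMac values were small. Of 6 TGF-beta-inducible genes tested, Skil, a feedback repressor of SMADs, rose with Ebf1 shRNA by 0.66 ± 0.13 and on the arrays labelled Pou2af1 shRNA by 0.70 ± 0.13. Smad7, the inhibitory SMAD, fell on the arrays labelled Pou2af1 shRNA, at -0.98 ± 0.12, and gave 0.40 ± 0.12 with Ebf1 shRNA (adjusted p = 0.0722). In all, 1 rose and 1 fell with Ebf1 shRNA, and 3 rose and 1 fell under the Pou2af1 label. Without any single one of the arrays compared, none rose or fell with Ebf1 shRNA, and 0 or 1 rose under the Pou2af1 label. Of 3 lymphocyte trafficking genes tested beside Klf2, S1pr1, the exit receptor that Klf2 activates in T cells, gave -1.03 ± 0.10 with Ebf1 shRNA (adjusted p = 0.00275) and 0.63 ± 0.10 under the Pou2af1 label (adjusted p = 0.0163). Of these 3 genes, 1 rose and 2 fell with Ebf1 shRNA, and 2 rose and 1 fell under the Pou2af1 label. The shares of all genes are those given for the TGF-beta-inducible genes. Leaving out single arrays lowered most of these counts. Klf2 itself gave 0.12 ± 0.11 and 0.04 ± 0.11, which did not pass the test.

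Cdx2 shRNA in iHeps moved no member past the threshold of limma's test, where 0.535% of 13650 genes were higher and 1.68% lower. At an unadjusted p under 0.05 there were 3. The share of all genes at that cut-off was not counted, so this number cannot be read as particular to the members. When limma used a mean-variance trend and a robust fit 1 member passed, Klf9. Klf9 had 12.88, 12.90, 12.76 and 12.72 with Cdx2 shRNA, against 12.46, 12.50, 12.53 and 12.55 with scramble shRNA. It was the only member whose groups did not overlap, where 10.9% of all genes tested did not overlap, with 0.31 ± 0.08 (adjusted p = 0.0778). Klf15 had 9.55, 9.51, 8.91 and 9.24 with Cdx2 shRNA, against 8.75, 8.72, 8.81 and 8.94 with scramble shRNA. The groups overlapped in Cdx2 shRNA replicate 3 alone, and the difference was 0.50 ± 0.14 (adjusted p = 0.126). Without Cdx2 shRNA replicate 3, Klf15 gave 0.63 and passed (adjusted p = 0.0415). Klf13 gave 0.55 ± 0.18 (adjusted p = 0.172) and Klf5 gave -0.38 ± 0.18 (adjusted p = 0.356). Klf5 had 9.61, 9.90, 10.52 and 10.08 with Cdx2 shRNA, against 10.32, 10.52, 10.53 and 10.24 with scramble shRNA. Klf4 had 11.44, 11.60, 11.83 and 11.75 with Cdx2 shRNA, against 11.50, 11.69, 11.97 and 11.88 with scramble shRNA. Both genes overlapped between the groups. Klf2, Klf3, Klf6, Klf7 and Klf10 also overlapped, with differences between -0.19 and 0.19. Within the 4 pairs of same-numbered arrays, Klf9, Klf10, Klf13 and Klf15 were higher with Cdx2 shRNA in all 4, and Klf3, Klf4 and Klf5 were lower in all 4. The share of all genes with 1 direction in all 4 pairs was not counted, so these counts cannot be read as particular to the members. Klf13 differed by 0.82, 0.83, 0.24 and 0.32, Klf15 by 0.80, 0.79, 0.10 and 0.30, and Klf5 by -0.71, -0.62, -0.02 and -0.16. With the pairs as a replicate block no member passed limma's test, the lowest adjusted p being 0.0631 for Klf13 and 0.0706 for Klf9. Of 10 glucocorticoid-inducible genes, Tat alone rose, by 0.71 ± 0.14, and it was lost without 7 of the 8 arrays in turn.

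**Figure D3:**
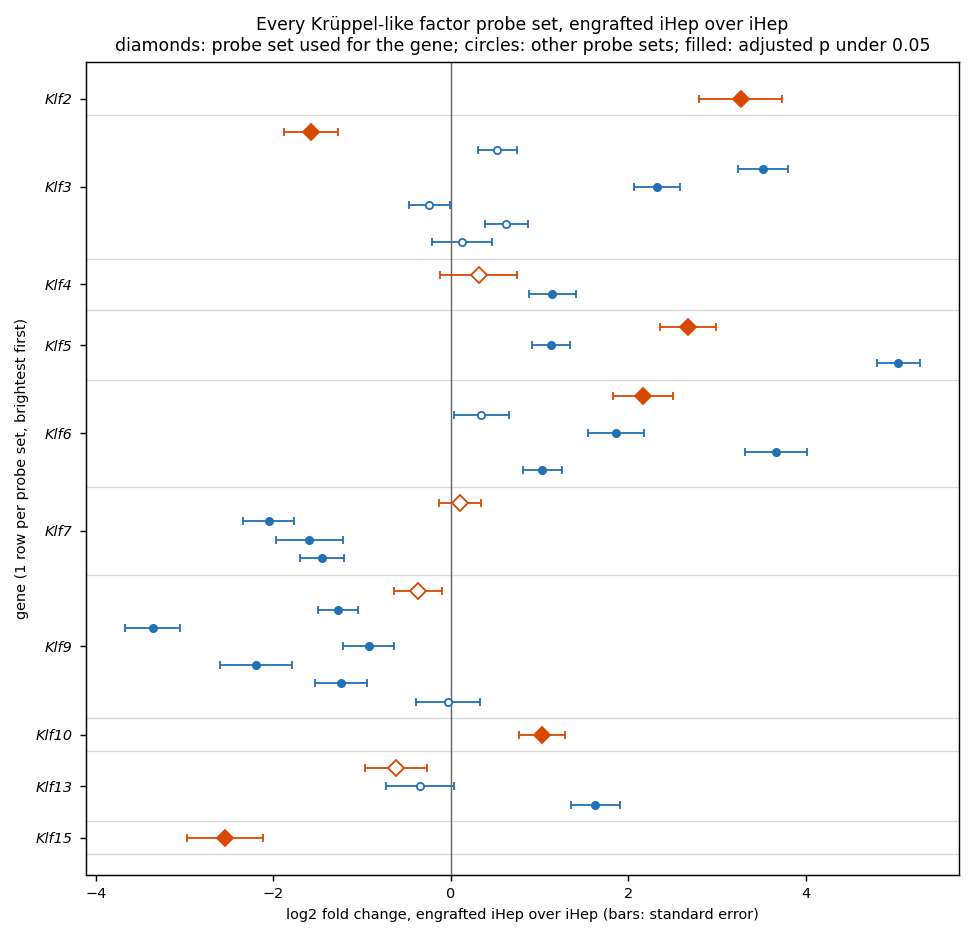
Log2 fold change of engrafted over cultured iHeps (horizontal axis, bars are standard errors) for all 34 probe sets, grouped by gene; diamonds are the probe sets used and filled symbols passed limma's test over all probe sets. The probe sets of Klf3 and Klf13 point both ways, and those of Klf7 and Klf9 differ in size.

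Probe sets of a gene did not always give the same answer. Both probe sets of Klf4 and all 5 of Klf6 followed each other over the 25 arrays, with correlations to the one used of at least 0.90. The second Klf4 probe set rose in engrafted over cultured iHeps, by 1.15, where the one used did not pass the test. The second Klf6 probe set gave 0.35 there and did not pass, while the other 4 rose by 1.03 to 3.67. In Klf3, the probe set used fell in engrafted over cultured iHeps (-1.57), while 2 others rose, by 3.52 ± 0.28 and 2.33 ± 0.26. In adult over fetal liver, 4 of the 7 Klf3 probe sets were lower and none was higher, so that direction did not rest on the one used. In Klf7, the probe set used gave 0.10 ± 0.24 in engrafted over cultured iHeps and the other 3 fell, by 1.59, 1.45 and 2.05 on the log2 scale. The same 3 fell on the arrays labelled Pou2af1 shRNA over scramble shRNA, by 0.87, 0.75 and 0.71. In Klf9, 5 of the 7 probe sets fell in engrafted over cultured iHeps, at -0.92 to -3.36, where the one used did not pass the test. In Klf13, the third probe set rose by 1.63 while the one used gave -0.62. In Klf5, a probe set with means of 9.44 in engrafted iHeps and 10.64 in colon had 4.39 in cultured iHeps, 4.46 in adult liver and 4.61 in fetal liver. The files do not say which transcript each probe set reads, so isoform use and probe behaviour cannot be told apart here.

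**Figure D4:**
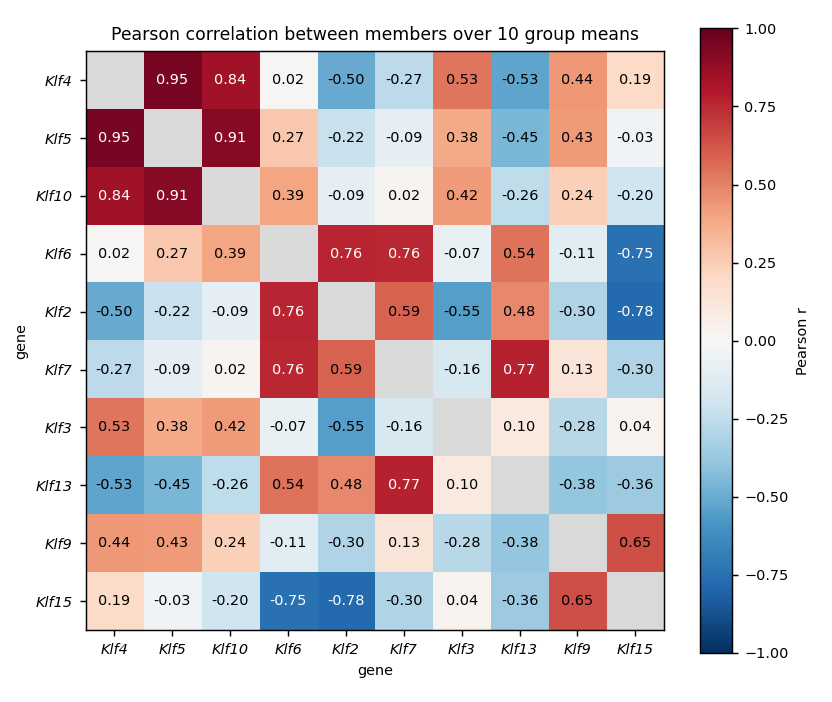
Pearson correlation (colour and number) between the 10 genes over 10 group means. Klf4, Klf5 and Klf10 share a block of correlations from 0.84 to 0.95, and Klf15 has -0.78 with Klf2 and -0.75 with Klf6.

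Over the 10 group means, 3 of the 45 pairs of members had a Pearson correlation over 0.8. These were Klf4 with Klf5 (0.95), Klf5 with Klf10 (0.91) and Klf4 with Klf10 (0.84). Klf9 with Klf15 gave 0.65. At the other end, 5 pairs were under -0.5, with Klf2 and Klf15 at -0.78 and Klf6 and Klf15 at -0.75. The 10 points share cell origins, since 4 groups are iHeps and 3 are iMacs, so they are a description of these groups. Among 9816 genes that pass the filter and span at least 2, the ones most like Klf4 were Plscr1, Fzd5, Slc25a24, Galnt3 and Tspan15, with correlations from 0.99 down to 0.986. For Klf5 they were Ppa2, Cdc42ep5, Rab3ip, Golm1 and Hoxa7, from 0.984 to 0.977. For Klf2 they were Doc2a, Nsun5, Phf12, Inpp4b and Rab5b, from 0.991 to 0.987. For Klf15 they were Rnf13, Ildr2, B3galt1, Rora and Serpina3n, from 0.98 to 0.964.

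The rest of the KLF and SP family was read through 13 of 16 listed genes on the array. Klf1, the erythroid member, had a mean of 13.16 in fetal liver, where the 5 erythroid marker genes on the array, Klf1 among them, averaged 10.69 and 10.88. It was lower in cultured iHeps (5.92) than in fetal liver, at -7.23 ± 0.19, and lower in adult liver (7.77), at -5.39 ± 0.21. Klf12, like Klf9 and Klf15, was higher in adult than in fetal liver, at 4.64 ± 0.86. Like Klf15, it was lower in engrafted than in cultured iHeps, at -2.28 ± 0.79. Klf11, a close relative of Klf10, rose in engrafted over cultured iHeps by 1.50 ± 0.26. In that comparison 2 of 12 family genes tested rose and 7 fell (median -0.62, against -0.22 over all genes tested), and the number that fell was 3 or 4 without any single one of the cultured iHep arrays or engrafted iHep replicate 1. Of all genes, 18.2% rose and 29.7% fell in engrafted over cultured iHeps. Sp5, a Wnt target, rose by 1.94 ± 0.34 there while Sp3 fell, at -2.93 ± 0.31. In adult over fetal liver 2 of 12 were higher and 5 lower, with 1 higher without fetal liver replicate 1 or adult liver replicate 2. Over all genes, 18.2% were higher and 31.1% lower in adult than in fetal liver. No family gene of the 8 tested in iMacs was called under either label.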

How the data were processed

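The deposited table holds 1 value per probe set and array on the log2 scale, made by the authors with RMA (background correction, quantile normalization and probe summary) per the submitters' processing notes, which give no version. Values ran from 2.05 to 15.11, and array medians from 6.11 to 6.30, so arrays were not scaled again. Of 45101 probe sets, 34945 name 1 gene in the platform annotation, 932 name several, 9160 are unlisted and 64 are controls. Each gene took its brightest probe set by mean over 25 arrays. The limma package (3.58.1, under R 4.3.3) was run apart for the iMacs, for the untransduced iHeps with the tissues, and for the Cdx2 shRNA experiment, over genes above the array's 40th percentile on at least 2 arrays, with Benjamini-Hochberg adjustment over all genes tested and a threshold of 0.05. Errors are limma's standard errors. Tested on simulated data, log2 changes of 1 and of 2 were recovered for 67% and 95% of the changed genes for Ebf1 over scramble shRNA (12413 genes), 24% and 76% for engrafted over cultured iHeps (14666 genes) and 88% and 99% for Cdx2 over scramble shRNA (13635 genes). In the same order, false calls in these simulations came to 3.57%, 1.96% and 7.43%, against a threshold of 0.05. Arrays give no counts, and their number limits the precision. Members and gene lists were chosen with earlier results of these data known. All members are named, with up to 4 called and 2 uncalled genes of each list described by size of change, any other KLF or SP gene, and for Klf2, Klf4, Klf5 and Klf15 the 5 genes most like them. Same-numbered Cdx2 shRNA and scramble arrays deviated together (correlations 0.250 to 0.504). This pairing, taken from the data, was used for the pair differences and the replicate block. The main Cdx2 shRNA test did not use it, since the labels state no pairs.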

Additional observations from a re-analysis of the deposited data

How the results depend on the processing

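Of 104 fold changes of members, 49 passed the test, and 34 of these passed in every alternative run. Over 1543 recomputed values, 62 lost a call, 32 gained one and 7 turned direction. With Ebf1 shRNA over scramble shRNA the number of members called, 2, was 1 with no filter, averaged probe sets, the second probe set, repeated quantile normalization, all 25 arrays in 1 model or a replicate block, and 1 without any single array. Under the Pou2af1 label over scramble shRNA, 1 became 3 with a filter at the 60th percentile, 4 with the mean of probe sets, 3 with the second probe set and 4 with a mean-variance trend and robust fit. Ebf1 shRNA over the Pou2af1 label gave 0 with no filter or all 25 arrays, 2 with the 60th percentile or the trend, and 0 without any single array. Engrafted iHep over colon gave 2 with the mean of probe sets, the second probe set or all 25 arrays. Cdx2 shRNA gave 1 with the trend, and 0 to 1 without single arrays. Turned directions came from the choice of probe set. Klf3 gave -1.35 (mean of probe sets) and -1.52 (second) in cultured iHeps over colon, and 0.76 and 0.53 in engrafted over cultured iHeps. Klf7 gave -1.25 and -2.05 in engrafted over cultured iHeps and, with the mean, -0.72 in engrafted iHeps over colon. Egr3 gave -1.74 with the mean in adult liver over colon. The cause was not tested.

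The replicate block, which takes same-numbered arrays as paired, gave 0 members called with Cdx2 shRNA, where the numbers deviated together, and changed no call there. Elsewhere the arrays share only a number, and the block ended the calls of Klf9 with Ebf1 shRNA (-0.48), Klf13 in cultured iHeps over adult liver (0.56), Klf3 over fetal liver (-0.94), Klf4 over colon (-1.37) and Klf9 in adult liver over colon (0.85). Fetal and adult liver arrays of the same number correlated at -0.138, and with the numbers crossed, an alternative chosen after seeing the data, 8 members were called, as before. Signal near the 40th percentile limits Klf4 and Klf5 in iMacs, Klf4 on adult liver replicate 2 and Klf5 in adult liver. It also limits Klf15 in engrafted iHeps, on the arrays labelled Pou2af1 shRNA and on 1 array each of Ebf1 shRNA iMacs, fetal liver and colon.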
